A study of Mus musculus with 9 samples.

Results

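The clustered protocadherins are the genes of 3 neighbouring arrays on mouse chromosome 18, called alpha, beta and gamma. They were taken from a count table of 24100 genes by symbol, as every row named Pcdha, Pcdhb with a number, or Pcdhg. This gave 57 genes, 14 in the alpha, 21 in the beta and 22 in the gamma cluster. All 57 had at least 1 count, and 53 had enough counts to be tested, 11, 20 and 22 per cluster. The symbols alone chose the genes, and no measured value entered the choice.

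Clustered protocadherins are cadherin-like receptors of the neuronal surface that bind the same isoform on a facing membrane. Each neuron expresses its own selection, and this is known to let the branches of a neuron recognise and avoid each other. In the alpha and gamma clusters, each gene begins with its own large variable exon, which carries the extracellular domains, and this exon is spliced to constant exons shared by the whole cluster. Beta genes are single exons without a constant part. Promoters of the variable exons are known to be chosen through DNA methylation and through looping by CTCF and cohesin. The C-type genes at the ends of the alpha and gamma clusters are known to be regulated apart from the others and to be expressed more evenly between neurons.

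Poly(A) RNA was measured in 9 libraries of cells that the labels call neural and that were derived from mouse embryonic stem cells. Cells of every group stably expressed a PiggyBAC transgene, carried in by a transposon, that encoded histone H4 with a 3HA epitope tag. The transgene was PiggyBAC_H4WT_3HA in the H4WT group, PiggyBAC_H4K91R_3HA in the H4K91R group and PiggyBAC_H4K91Q_3HA in the H4K91Q group, with 3 libraries in each. In the mutants the same lysine of histone H4 was replaced by arginine (H4K91R) or by glutamine (H4K91Q), and the series asked which genes change in differentiated cells that express them. The labels name no untransfected group and no deletion of the cells' own histone H4 genes. All 9 libraries carry the mark 4D or 4Ddif, which the labels do not spell out. Neither the transgene's promoter nor whether a line was 1 clone is given. The labels do not say that replicates came from separate cultures either, so the p-values measure only the spread between these libraries, which may be technical.

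Total counts ran from 8970553 to 28887501 per library, and the clustered protocadherins held 0.0380% to 0.0588% of them. Levels are given in CPM, the counts per 1000000 counts of a library on edgeR's TMM scale, where 3 counts, the most that a count of 0 allows, equal 0.111 to 0.367 CPM depending on the library. This floor covers counting error only. Across the 14761 genes tested, 46% passed an adjusted p of 0.05 for H4K91R against H4WT and 46.3% for H4K91Q against H4WT, so a call was common in these libraries. Markers of several cell types were present in every group. The summed level of 12 neuronal markers was 398 to 486 CPM in H4WT, 1062 to 1269 CPM in H4K91R and 878 to 932 CPM in H4K91Q. That of 8 smooth muscle markers was 4210 to 5068, 502 to 780 and 478 to 555 CPM, and that of 8 fibroblast and mesenchyme markers was 5711 to 6662, 6261 to 7180 and 6569 to 7254 CPM. No marker of these lists was at 0 in all libraries.

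The 3 clusters differed in how their summed level varied between the groups. The alpha cluster summed to 10.3, 14.6 and 13.6 CPM in the H4WT libraries, to 41.8, 49.6 and 54.3 CPM in H4K91R, and to 31.4, 33.2 and 30.7 CPM in H4K91Q. No library of one group reached the range of another. The mean was 3.78-fold that of H4WT in H4K91R and 2.47-fold in H4K91Q. The beta cluster summed to 56.0, 61.8 and 65.5 CPM in H4WT, to 113, 118 and 109 CPM in H4K91R, and to 98.7, 95.7 and 103 CPM in H4K91Q, which is 1.85-fold and 1.62-fold the H4WT mean. Here too the ranges of the 3 groups were separate. The gamma cluster summed to 349, 366 and 436 CPM in H4WT, to 402, 388 and 350 CPM in H4K91R, and to 326, 278 and 361 CPM in H4K91Q, and all 3 groups overlapped. Its mean was 0.990-fold that of H4WT in H4K91R and 0.839-fold in H4K91Q. Without Pcdhgc3, the gene with the highest level, the gamma sum was 1.08-fold and 0.902-fold the H4WT mean. These sums are scores over chosen genes and carry no p-value.

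**Figure D1:**
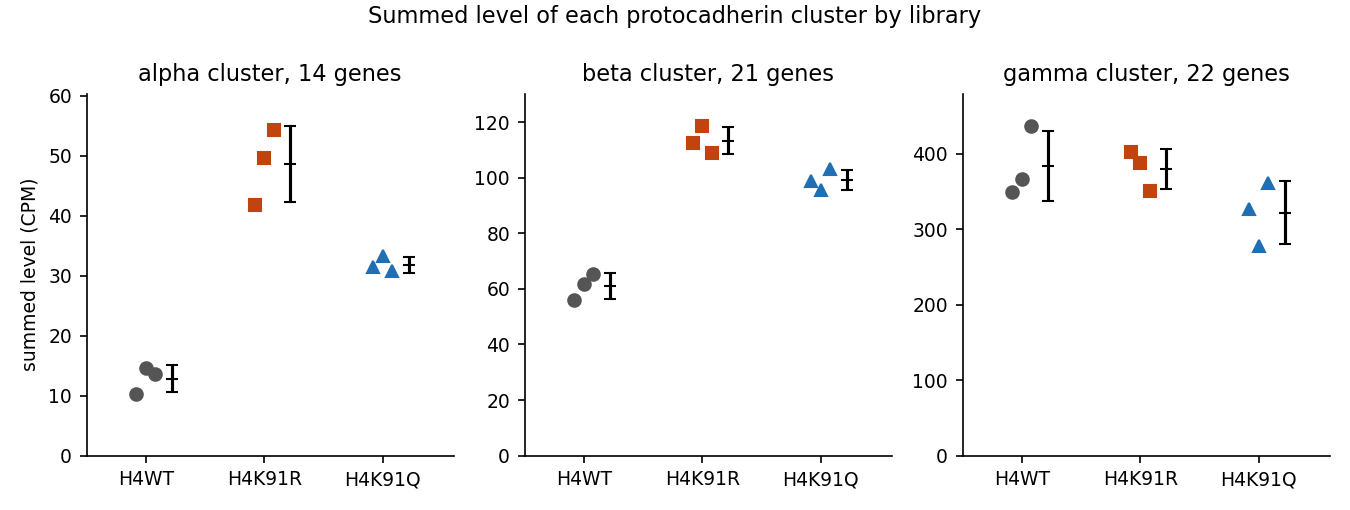
Summed level of each cluster in CPM (y axis, linear from 0) in the 3 libraries of each group (points), with the mean and SD beside them (black dash and bar). The alpha libraries sit at 10.3 to 14.6 CPM in H4WT and at 30.7 to 54.3 CPM in the mutants, the beta libraries at 56.0 to 65.5 and 95.7 to 118 CPM, and the gamma groups overlap.

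Gamma genes held most of the signal in every library, and their share was lower in the mutants. Gamma made up 83.8% ± 0.971 (SD, n = 3) of the summed level of all clustered protocadherins in H4WT, 70.1% ± 2.04 in H4K91R and 70.9% ± 2.39 in H4K91Q. The alpha share was 2.81% ± 0.430, 9.0% ± 1.53 and 7.08% ± 0.998, and the beta share was 13.4% ± 0.629, 20.9% ± 0.595 and 22% ± 1.39, in the same order. For each of the 3 shares, no H4WT library lay within the range of the mutants. In bulk RNA a larger fraction of cells that express a gene and more RNA per cell cannot be told apart. The neuronal markers moved with the alpha and beta sums, at 2.66-fold the H4WT mean in H4K91R and 2.03-fold in H4K91Q, and 10 of the 12 were called higher in each mutant, while 1 was called lower in H4K91Q. The sum of the 10 neural progenitor markers moved likewise, from 234 to 301 CPM in H4WT to 665 to 755 CPM in H4K91R and 474 to 546 CPM in H4K91Q. Of these markers, 9 were called higher in each mutant, while 1 was called lower in H4K91Q. The 8 glial markers summed to 28.5 to 31.7 CPM in H4WT, 50.3 to 68.1 CPM in H4K91R and 55.6 to 66.6 CPM in H4K91Q, and 4 of the 6 tested were called higher in each mutant. The 8 smooth muscle markers were all called lower in both mutants. The part of these markers in the protocadherin results was not tested.

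The alpha cluster spans chr18:36930285-37188897 on GRCm38.p6, the patch release of the build mm10 that the submitters name. Alpha proteins share a cytoplasmic domain, encoded by the constant exons, that is known to bind the WAVE complex, a regulator of the actin cytoskeleton. In H4K91R, 10 of the 11 tested alpha genes rose and 0 fell, beside 20.9% of all tested genes called higher and 25.1% called lower. In H4K91Q, 8 of 11 rose and 0 fell, beside 22.5% of all genes. The median log2 change of the 11 was 1.88 in H4K91R and 1.19 in H4K91Q, beside medians of -0.03 and 0.01 over all genes. The libraries of 10 of the 11 did not overlap in H4K91R and lay above H4WT, as those of 25% of all genes did, and the same held for 9 in H4K91Q, beside 27.4%. A gene that is low in H4WT could enter the test through a mutant group in which it is high, so the counts of tested genes describe these libraries and are no independent support. With no filter on low counts, 11 of the 14 were called higher in H4K91R and 8 in H4K91Q. Without replicate 1 of H4WT, 5 alpha genes were called higher in H4K91Q.

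Pcdha3, at chr18:36946088-37187663, had the highest level of the alpha genes in H4K91R and in H4K91Q per kb of transcript. It was at 2.16, 3.30 and 2.20 CPM in the H4WT libraries, 8.57, 11.8 and 13.3 CPM in H4K91R, and 8.75, 8.77 and 6.33 CPM in H4K91Q. Every mutant library lay above every H4WT library, and the mutants overlapped each other. The log2 change was 2.0 ± 0.23 (SE) in H4K91R and 1.53 ± 0.23 in H4K91Q, with adjusted p of 1.29e-05 and 0.000128 by edgeR's quasi-likelihood test. Pcdha4 was at 1.08, 3.30 and 2.69 CPM in H4WT, 9.61, 9.99 and 9.16 CPM in H4K91R, and 6.26, 6.78 and 6.56 CPM in H4K91Q, with no overlap between any of the 3 groups. Pcdha5 was at 3.01, 2.0 and 2.33 CPM, then 6.91, 6.61 and 6.20 CPM, then 4.12, 5.13 and 4.10 CPM, and its 3 groups were separate as well. Their log2 changes were 1.88 ± 0.23 and 1.5 ± 0.19 in H4K91R, with adjusted p of 2.34e-05 and 3.34e-05, and 1.32 ± 0.23 and 0.93 ± 0.19 in H4K91Q, with adjusted p of 0.000445 and 0.00152. Pcdha2 was at or under the floor in replicates 1 and 3 of H4WT and above it in replicate 2, at 0.240, 1.22 and 0 CPM, and reached 3.51, 4.48 and 4.83 CPM in H4K91R and 2.27, 3.29 and 2.52 CPM in H4K91Q. Its log2 change of 2.50 ± 0.46 in H4K91R was the largest estimate of the alpha cluster, with an adjusted p of 0.000592, and it was 1.85 ± 0.46 in H4K91Q, with an adjusted p of 0.00537. Replicate 2 of H4WT held 33 of its counts in that group and the other two held 2 and 0, and without that library the estimates of Pcdha2 were 5.03 and 4.37.

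The other tested alpha genes of the alternate type were lower in level. Pcdha1, Pcdha9, Pcdha10, Pcdha11 and Pcdha12 rose in H4K91R by log2 changes of 1.68 to 2.12. Of these, Pcdha10, Pcdha11 and Pcdha12 also rose in H4K91Q, by 1.06 to 1.39. In H4WT, Pcdha1 and Pcdha9 were at or under the floor in replicate 3, Pcdha12 in replicate 1, and Pcdha11 in replicates 1 and 3. The H4K91R estimate of Pcdha11 ran from 1.685 to 3.034 across the fits. The H4K91Q call of Pcdha11 was lost in 5 and that of Pcdha12 in 3 of the fits that left out 1 library, with adjusted p of up to 0.152 and 0.0753. Pcdha1 had an estimate of 0.68 ± 0.43 there with an adjusted p of 0.211, and Pcdha9 one of 1.04 ± 0.46 with an adjusted p of 0.0829. Pcdha7 passed no test, at 1.74 ± 1.07 and -0.23 ± 1.29, and its libraries scattered between 0 and 2.04 CPM. Pcdha6, Pcdha8 and Pcdhac1 were not tested because of low counts.

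Of the C-type alpha genes, Pcdhac2 is known to be needed for the even spacing of serotonergic axons. It was at 0.721, 1.19 and 1.96 CPM in H4WT, 2.36, 2.36 and 4.43 CPM in H4K91R, and 2.40, 2.39 and 3.93 CPM in H4K91Q. The mutants lay above H4WT without overlap and covered nearly the same range as each other. Pcdhac2 had a log2 change of 1.23 ± 0.37 in H4K91R (adjusted p = 0.0156) and 1.19 ± 0.36 in H4K91Q (adjusted p = 0.0152). The H4K91R call was lost without replicate 2 of H4WT (adjusted p = 0.0724) or replicate 3 of H4K91R (0.0625). The H4K91Q call was lost without replicate 1 (0.05) or 2 (0.0771) of H4WT or replicate 3 of H4K91Q (0.0593). Pcdhac1 was at 0 to 0.240 CPM in H4WT, 0.403 to 0.629 CPM in H4K91R and 0 to 0.448 CPM in H4K91Q, from 40 counts in all. The C-type genes held 10.8% ± 3.16 of the alpha sum in H4WT, 7.24% ± 1.62 in H4K91R and 10.1% ± 3.51 in H4K91Q, and the groups overlapped.

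The division of reads among alpha genes is less certain than their sum. The shared constant exons make up 2860 bases of each transcript in GENCODE release M21. The share of 31-base words of a transcript that occur in no transcript of another gene was 2.17% for Pcdha4, 36.4% in the median and 51.6% at most. Among beta genes this share was 77.5% to 100%, and among gamma genes 32.2% to 76.2%. The deposited values are estimates in which reads that match several genes are divided among them.

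The table also holds Gm37013, Gm38666 and Gm38667, which RefSeq annotates as hybrids of an alpha variable exon with the gamma constant exons and which the choice by symbol leaves out. Gm38667 had 0, 14 and 0 counts in H4WT, 38, 20 and 2 in H4K91R, and 123, 610 and 75 in H4K91Q. All H4K91Q libraries lay above the others, and replicate 2, at 30.4 CPM, lay far above the 5.27 and 4.39 CPM of the remaining pair. Its adjusted p was 0.00091 for H4K91Q and 0.235 for H4K91R. Added to the alpha cluster, the 3 hybrid rows brought the H4K91Q libraries to 36.7, 63.6 and 36.2 CPM, so that H4K91Q and H4K91R then overlapped. With them the log2 ratio of the alpha sum of H4K91Q to that of H4K91R was -0.16, against -0.61 without them.

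**Figure D2:**
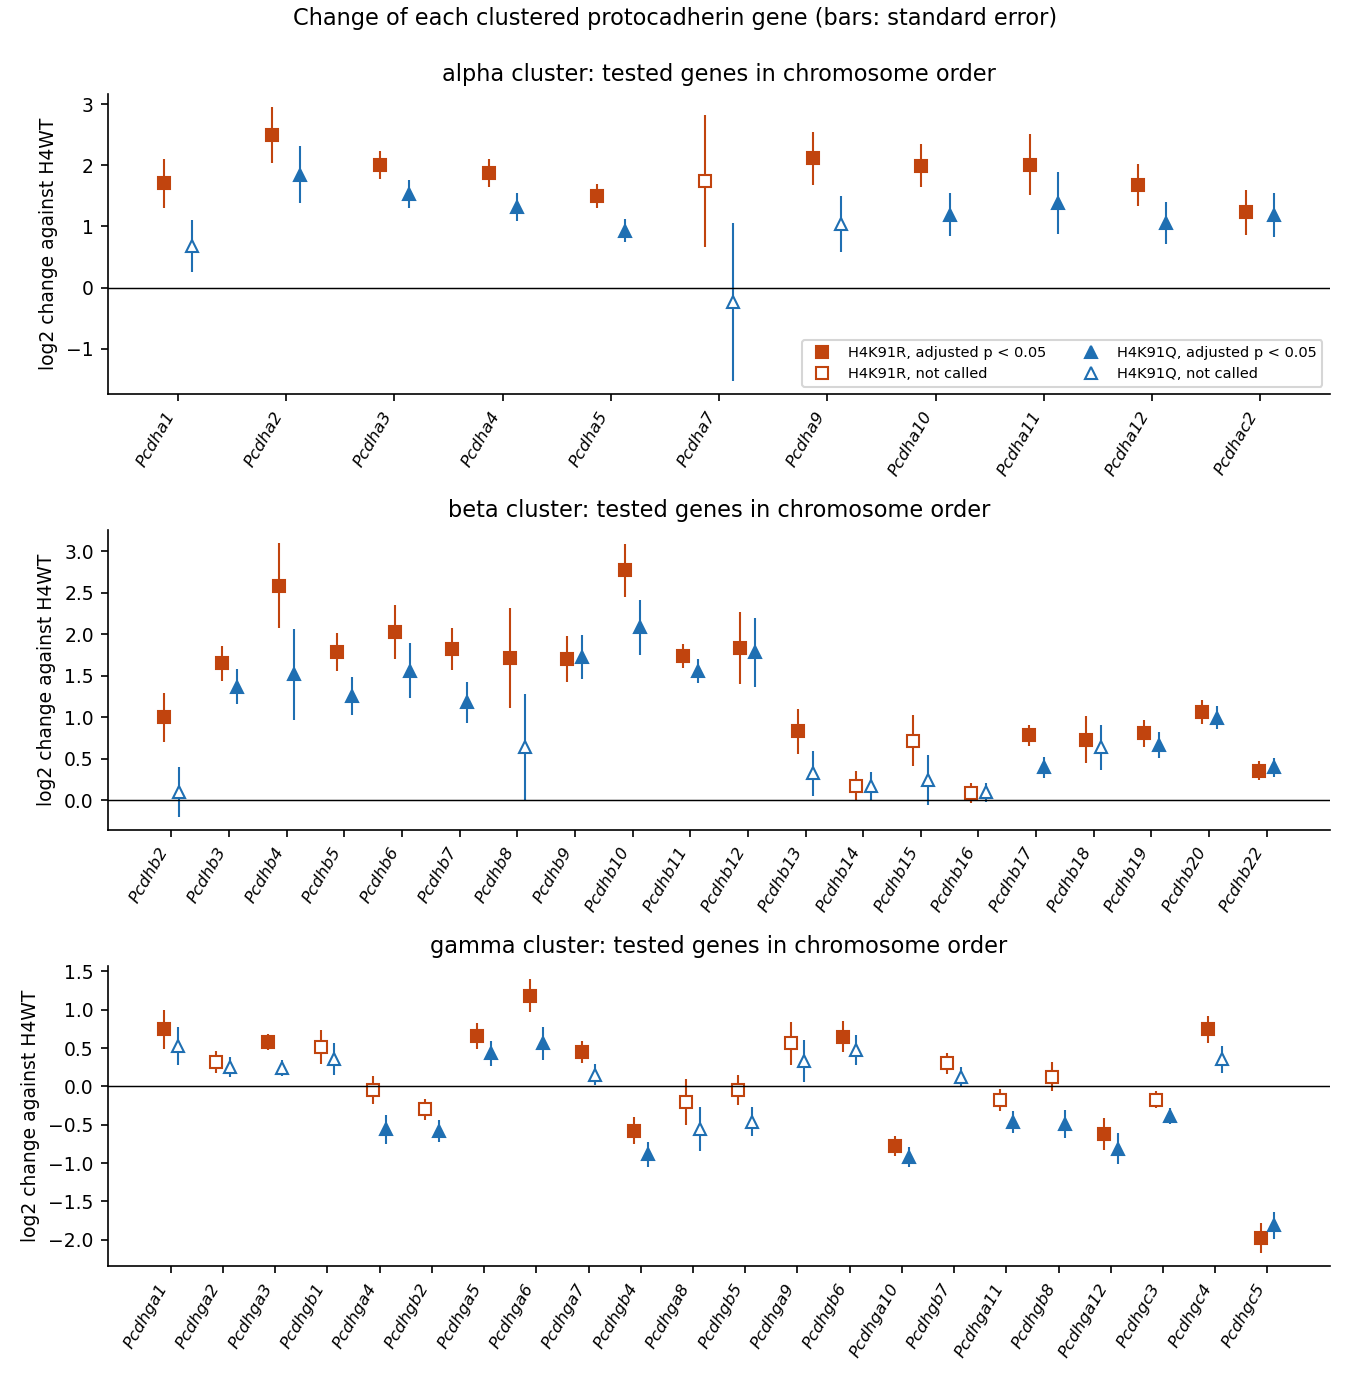
Log2 change against H4WT (y axis) of the tested genes of each cluster in chromosome order, for H4K91R (squares) and H4K91Q (triangles), with standard errors as bars and filled markers for an adjusted p below 0.05. All called alpha and beta genes lie above 0, called gamma genes lie on either side, and Pcdhgc5 is the lowest at -1.98 and -1.81.

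The beta cluster lies between the other clusters, at chr18:37264998-37521419. In H4K91R, 17 of the 20 tested beta genes rose and 0 fell, with a median log2 change of 1.36 and a range of 0.09 to 2.77. In H4K91Q, 13 of 20 rose and 0 fell, with a median of 0.83 and a range of 0.10 to 2.09. The shares of all genes called higher were those given for the alpha genes, 20.9% and 22.5%. All 20 estimates were positive in each mutant. As in the alpha cluster, a beta gene low in H4WT could enter the test through a mutant group in which it is high. These counts of called beta genes are therefore no independent support either. With no filter on low counts 17 were called higher in H4K91R and 12 in H4K91Q. With library size as the only scaling 18 and 14 were called higher, and with DESeq2 16 and 11. Pcdhb1, with 1 count in all 9 libraries, was not tested.

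Beta genes differed in the size of their change along the array, a pattern seen after the values were known and therefore given without a test. The 11 genes Pcdhb2 to Pcdhb12 had a median log2 change of 1.79 in H4K91R and 1.52 in H4K91Q, and all 11 and 9 of them rose. The 9 genes Pcdhb13 to Pcdhb22 had medians of 0.73 and 0.40, and 6 and 4 of them rose. The summed level of the former was 3.55-fold that of H4WT in H4K91R and 2.71-fold in H4K91Q, and that of the latter 1.45-fold and 1.36-fold. Across the 20 genes, Spearman's rho between order and log2 change was -0.64 for H4K91R and -0.34 for H4K91Q. Order was also related to the level per kb in H4WT (rho = 0.61), and that level to the log2 change (rho = -0.66 and -0.44). That level and the log2 change share the same H4WT counts, so error in those counts alone can push the latter values below 0. The share of unique 31-base words was related to the change as well (rho = -0.74 and -0.68). These genes are neighbours measured in the same libraries, so the correlations are descriptions, and which of these properties goes with the change cannot be told apart.

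Pcdhb11 had the highest level per kb among Pcdhb2 to Pcdhb12. It was at 3.49, 3.78 and 3.55 CPM in H4WT, 11, 14.1 and 11.6 CPM in H4K91R, and 9.86, 11.2 and 11.2 CPM in H4K91Q. The H4WT libraries were close together and well below all mutant libraries. Pcdhb11 had a log2 change of 1.74 ± 0.15 in H4K91R (adjusted p = 1.11e-06) and 1.56 ± 0.14 in H4K91Q (adjusted p = 3.24e-06), the smallest adjusted p of any clustered protocadherin in either comparison. Pcdhb10 had the largest estimates of the beta cluster, 2.77 ± 0.32 and 2.09 ± 0.33, from 0.601, 0.444 and 1.35 CPM in H4WT to 4.49, 5.11 and 4.23 CPM in H4K91R and 3.0, 3.29 and 2.29 CPM in H4K91Q. Pcdhb4, the next in size in H4K91R at 2.59 ± 0.51, was at or under the floor in the H4WT libraries, with 0.120, 0.111 and 0.367 CPM. In H4K91Q its libraries overlapped those of H4WT, and the estimate was 1.52 ± 0.55 (adjusted p = 0.0384), a call that held in 6 of 14 alternatives. Pcdhb10 and Pcdhb4 were singled out after their values were seen.

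Towards the gamma cluster, Pcdhb22 and Pcdhb16 had the highest levels per kb of GENCODE transcript in H4WT and small estimates. Over the RefSeq span, Pcdhb17 was at 1.83 CPM per kb in H4WT, above Pcdhb16 at 1.79. Pcdhb22 was at 13.3, 14.8 and 16.9 CPM in H4WT, 19.9, 17.6 and 20.0 CPM in H4K91R, and 21, 18 and 20.1 CPM in H4K91Q. All mutant libraries lay above H4WT, the nearest by less than the H4WT libraries differed from each other. Its log2 change was 0.36 ± 0.11 in H4K91R (adjusted p = 0.0204) and 0.40 ± 0.11 in H4K91Q (adjusted p = 0.0102). The H4K91R call was lost without replicate 1 or 2 of H4WT or replicate 1 or 3 of H4K91R, with adjusted p of 0.0535 to 0.0653. Pcdhb16 was at 9.50, 9.30 and 9.55 CPM in H4WT, 10.2, 10.8 and 8.96 CPM in H4K91R, and 9.99, 9.96 and 10.3 CPM in H4K91Q. Its estimates of 0.09 ± 0.12 and 0.10 ± 0.11 were not called (adjusted p = 0.557 and 0.503). Pcdhb19, between them, rose from 5.77, 6.48 and 6.86 CPM to 10.8, 13.1 and 9.65 CPM in H4K91R and to 11.7, 8.52 and 10.1 CPM in H4K91Q, with no mutant library in the H4WT range. Its log2 change was 0.81 ± 0.16 (adjusted p = 0.00117) and 0.66 ± 0.16 (adjusted p = 0.00396).

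The other beta genes filled the range between these. Pcdhb3, Pcdhb5, Pcdhb6, Pcdhb7, Pcdhb9 and Pcdhb12 rose in both mutants, by 1.65 to 2.02 in H4K91R and 1.18 to 1.78 in H4K91Q. Pcdhb17 and Pcdhb20 also rose in both, by 0.78 and 1.06 in H4K91R and 0.40 and 0.99 in H4K91Q. Pcdhb6 and Pcdhb12 were under the floor in replicate 1 of H4WT. The H4K91Q call of Pcdhb17 was lost with DESeq2 and without replicate 3 of H4WT or replicate 2 of H4K91Q, with an adjusted p of up to 0.0612. Pcdhb2, Pcdhb8, Pcdhb13 and Pcdhb18 were called in H4K91R and not in H4K91Q, where their estimates were 0.10 to 0.64. The direct comparison of the mutants called none of these 4. Their H4K91R calls held in 14 of 15, 9 of 14, 11 of 15 and 9 of 15 alternatives, in the order named, with adjusted p of up to 0.0601, 0.0923, 0.105 and 0.144. Pcdhb8 had 0, 13 and 0 counts in the H4WT libraries, and its H4K91R estimate ran from 1.40 to 6.81 across the fits. Pcdhb14 and Pcdhb15 passed neither test.

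**Figure D3:**
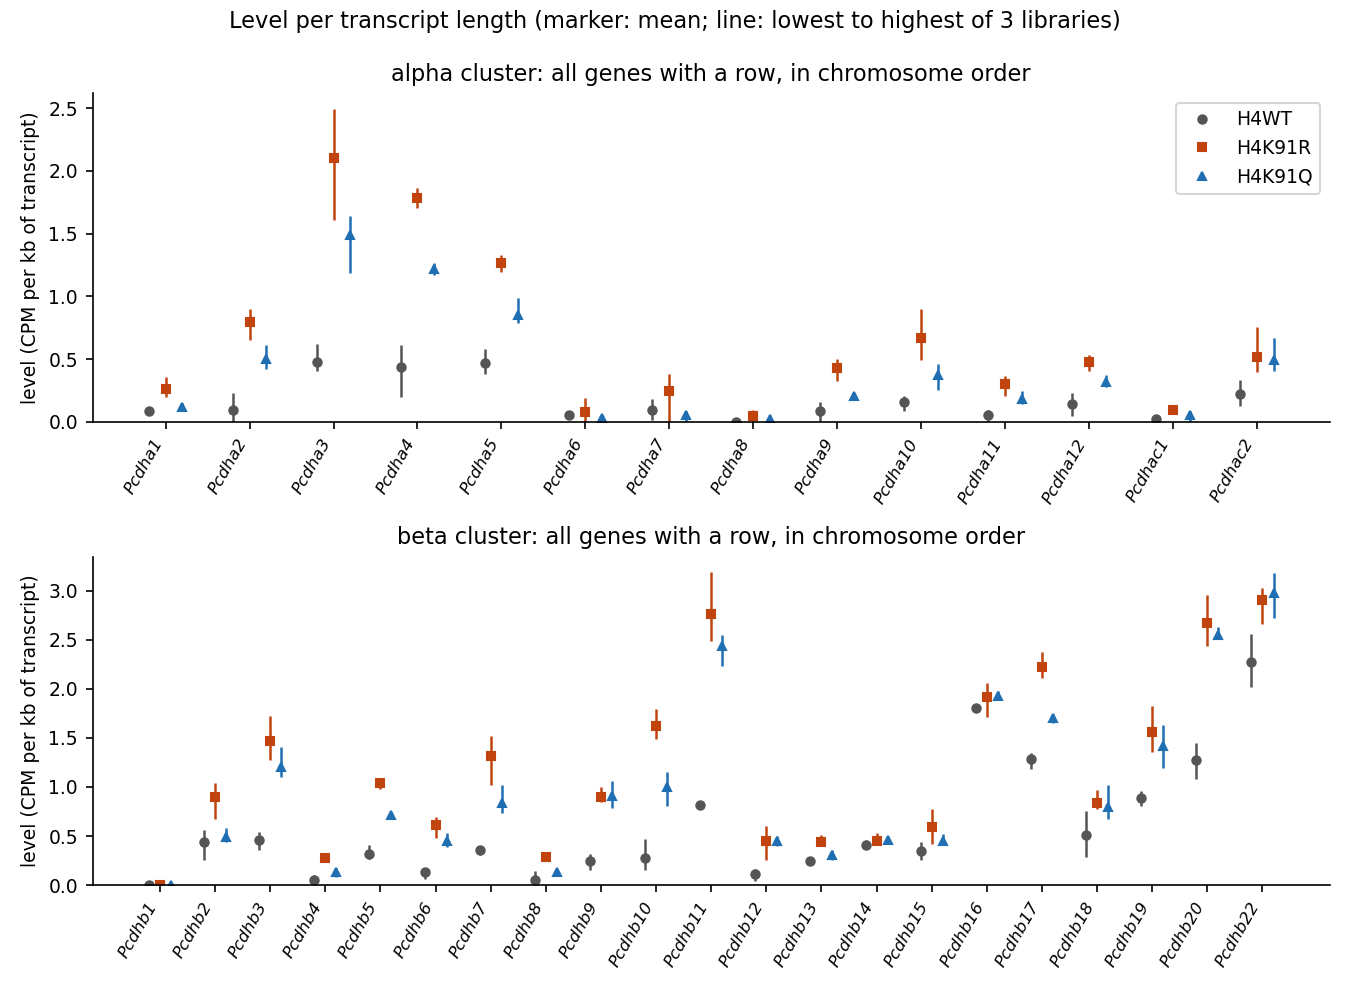
Level in CPM per kb of GENCODE transcript (y axis, linear from 0) of all alpha and beta genes with a row, in chromosome order, with the mean as marker and a line from the lowest to the highest of 3 libraries. Pcdhb11 moves from 0.816 in H4WT to 2.77 in H4K91R and 2.44 in H4K91Q, while Pcdhb16 stays between 1.81 and 1.93.

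The gamma cluster, at chr18:37661775-37841873, had genes called in both directions in each mutant. In H4K91R, 7 of the 22 genes rose, beside 20.9% of all tested genes, and 4 fell, beside 25.1%. In H4K91Q, 2 of the 22 rose, a smaller share than the 22.5% of all genes, and 9 fell, a larger share than the 23.8%. The median log2 change of the 22 was 0.21 in H4K91R and -0.13 in H4K91Q, and the estimates ran from -1.98 to 1.18 and from -1.81 to 0.56. The split depended on the scaling. With library size alone, which moved the median of all genes to 0.15 in H4K91R and 0.18 in H4K91Q, 11 gamma genes were called higher and 2 lower in H4K91R, and 7 higher and 5 lower in H4K91Q. Single libraries mattered too, since without replicate 1 of H4K91R 4 genes were called higher in H4K91R, and without replicate 3 of H4WT 2 were called lower in H4K91R and 5 in H4K91Q. Libraries of 8 genes lay wholly above H4WT in H4K91R and of 4 wholly below, beside 25% and 30.1% of all genes, and of 3 and 9 in H4K91Q, beside 27.4% and 27.7%. By type, 5 of the 12 A genes rose and 2 fell in H4K91R, 1 of the 7 B genes rose and 1 fell, and 1 of the 3 C genes rose and 1 fell. In H4K91Q the A genes gave 2 higher and 4 lower, the B genes 0 and 3, and the C genes 0 and 2.

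The C-type genes each followed a course of their own. Pcdhgc3, whose cytoplasmic part is known to bind Axin1 and to promote dendrite branching, had the highest level of all clustered protocadherins in every group, with 37.8 CPM per kb in H4WT, 33.5 in H4K91R and 28.9 in H4K91Q. It was at 156, 171 and 205 CPM in H4WT, 163, 159 and 149 CPM in H4K91R, and 136, 116 and 154 CPM in H4K91Q. H4K91R overlapped H4WT, and H4K91Q lay just below it. Pcdhgc3 had a log2 change of -0.17 ± 0.11 in H4K91R (adjusted p = 0.213) and -0.39 ± 0.11 in H4K91Q (adjusted p = 0.011). The H4K91Q call was lost with library size as the only scaling (adjusted p = 0.112) and without replicate 3 of H4WT (0.0535), and the H4K91R estimate turned to 0.01 with that scaling. Pcdhgc3 made up 46.1% ± 1.14 of the gamma sum in H4WT, 41.3% ± 1.02 in H4K91R and 42.1% ± 0.514 in H4K91Q.

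Pcdhgc5, a C-type gene whose protein is known to bind GABA-A receptors, had the largest decrease of the gene family. It was at 8.90, 9.56 and 11.8 CPM in H4WT, 2.70, 2.91 and 1.87 CPM in H4K91R, and 3.26, 2.64 and 2.58 CPM in H4K91Q. All mutant libraries were far below all H4WT libraries. Pcdhgc5 had a log2 change of -1.98 ± 0.19 in H4K91R (adjusted p = 3.42e-06) and -1.81 ± 0.18 in H4K91Q (adjusted p = 4.97e-06). Its share of the gamma sum was 2.62% ± 0.0733 in H4WT, 0.653% ± 0.110 in H4K91R and 0.888% ± 0.153 in H4K91Q. Pcdhgc4, known for its part in the survival of interneurons, lies beside Pcdhgc5 and shares its constant exons. It was at 4.81, 6.37 and 6.0 CPM in H4WT, 9.78, 9.67 and 9.95 CPM in H4K91R, and 5.79, 7.77 and 9.02 CPM in H4K91Q. H4K91R was above H4WT, and H4K91Q overlapped it. Pcdhgc4 had a log2 change of 0.74 ± 0.17 in H4K91R (adjusted p = 0.0035) and 0.35 ± 0.17 in H4K91Q (adjusted p = 0.112). The last estimate was called with library size as the only scaling (adjusted p = 0.0248) and without replicate 1 of H4K91Q (0.019).

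Among the alternate gamma genes, Pcdhga10 showed the clearest decrease. It was at 23.9, 23.9 and 32.0 CPM in H4WT, 16.1, 14.7 and 15.3 CPM in H4K91R, and 14.7, 12.2 and 14.8 CPM in H4K91Q. No mutant library reached the H4WT range. The log2 change was -0.78 ± 0.13 in H4K91R (adjusted p = 0.000289) and -0.92 ± 0.13 in H4K91Q (adjusted p = 6.62e-05). Pcdhgb4 was at 11.7, 13 and 15.2 CPM in H4WT, 9.32, 8.65 and 8.57 CPM in H4K91R, and 8.23, 5.18 and 8.03 CPM in H4K91Q, below H4WT throughout. It fell by 0.58 ± 0.17 in H4K91R on the log2 scale (adjusted p = 0.0141), a call lost without replicate 3 of H4WT (0.0555) and with library size alone (0.072), and by 0.89 ± 0.17 in H4K91Q (adjusted p = 0.000806). Pcdhga12 was at 4.57, 6.04 and 7.35 CPM in H4WT, 4.26, 3.85 and 3.45 CPM in H4K91R, and 3.04, 2.89 and 4.39 CPM in H4K91Q. It fell by 0.62 ± 0.21 (adjusted p = 0.0295) and by 0.81 ± 0.21 (adjusted p = 0.006), and the H4K91R call was lost in 6 alternatives, among them DESeq2 (0.0603) and the fit without replicate 3 of H4WT (0.106).

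Other alternate gamma genes, among them Pcdhga3 and Pcdhga6, went the other way in H4K91R. Pcdhga3 was at 13.2, 11.9 and 13.6 CPM in H4WT, 19.8, 19.0 and 18.4 CPM in H4K91R, and 14.8, 14.1 and 16.3 CPM in H4K91Q. Both mutants lay above H4WT, H4K91R by more. The log2 change was 0.58 ± 0.11 in H4K91R (adjusted p = 0.000542) and 0.24 ± 0.10 in H4K91Q (adjusted p = 0.0727). Pcdhga6 was at 5.05, 5.30 and 6.12 CPM in H4WT, 12.4, 13.4 and 11.2 CPM in H4K91R, and 11.1, 6.23 and 6.56 CPM in H4K91Q. Replicate 1 of H4K91Q was close to the H4K91R libraries, and the other two were close to H4WT. The log2 change was 1.18 ± 0.21 in H4K91R (adjusted p = 0.000539) and 0.56 ± 0.21 in H4K91Q (adjusted p = 0.0459). The latter call was lost in 7 of 15 alternatives, and without replicate 1 of H4K91Q the estimate was 0.23 (adjusted p = 0.26).

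Pcdhga7, Pcdhga5 and Pcdhgb6 rose in H4K91R with less separation. Pcdhga7 was at 17.6, 23.6 and 23.0 CPM in H4WT, 32.7, 28.9 and 26.6 CPM in H4K91R, and 25.2, 19.8 and 27.2 CPM in H4K91Q, and only H4K91R was clear of H4WT. Pcdhga5 was at 9.26, 11.3 and 14.8 CPM, then 20.8, 18.2 and 16.1 CPM, then 15.3, 13.8 and 18.5 CPM, with H4K91Q overlapping H4WT. Pcdhgb6 was at 12, 11 and 13.7 CPM, then 21.6, 20.9 and 13.6 CPM, then 16.5, 12.9 and 21.2 CPM, and both mutants overlapped H4WT. Their log2 changes in H4K91R were 0.45 ± 0.14, 0.66 ± 0.16 and 0.65 ± 0.20, with adjusted p of 0.0189, 0.00541 and 0.0184. The call of Pcdhga7 was lost without replicate 1 of H4WT (0.0671) or of H4K91R (0.0775), and that of Pcdhgb6 without replicate 2 of H4WT (0.0765) or replicate 1 (0.071) or 2 (0.0682) of H4K91R. In H4K91Q, Pcdhga5 was called (0.43 ± 0.16, adjusted p = 0.0445) and Pcdhga7 and Pcdhgb6 were not (0.395 and 0.0659). That call of Pcdhga5 was lost in 5 of the fits that left out 1 library, with adjusted p of 0.0591 to 0.155.

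Of the other gamma genes, Pcdhga1 rose in H4K91R, by 0.74 ± 0.25 (adjusted p = 0.0287), a call lost without replicate 2 of H4WT or replicate 1 or 2 of H4K91R (adjusted p up to 0.189). Pcdhga4, Pcdhgb2, Pcdhga11 and Pcdhgb8 fell in H4K91Q, by 0.56, 0.58, 0.46 and 0.49 on the log2 scale, and the call of Pcdhgb8 (adjusted p = 0.0461) held in 3 of 15 alternatives. Those of Pcdhga4 and Pcdhga11 held in 11 and 12 of 15, and were lost without replicate 3 of H4WT among others. Pcdhga2, Pcdhgb1, Pcdhga8, Pcdhgb5, Pcdhga9 and Pcdhgb7 were called in neither mutant. Order along the cluster and log2 change gave a Spearman's rho of -0.40 for H4K91R and -0.39 for H4K91Q over the 22 genes. In the alpha cluster it was -0.31 and -0.07 over 11 genes.

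**Figure D4:**
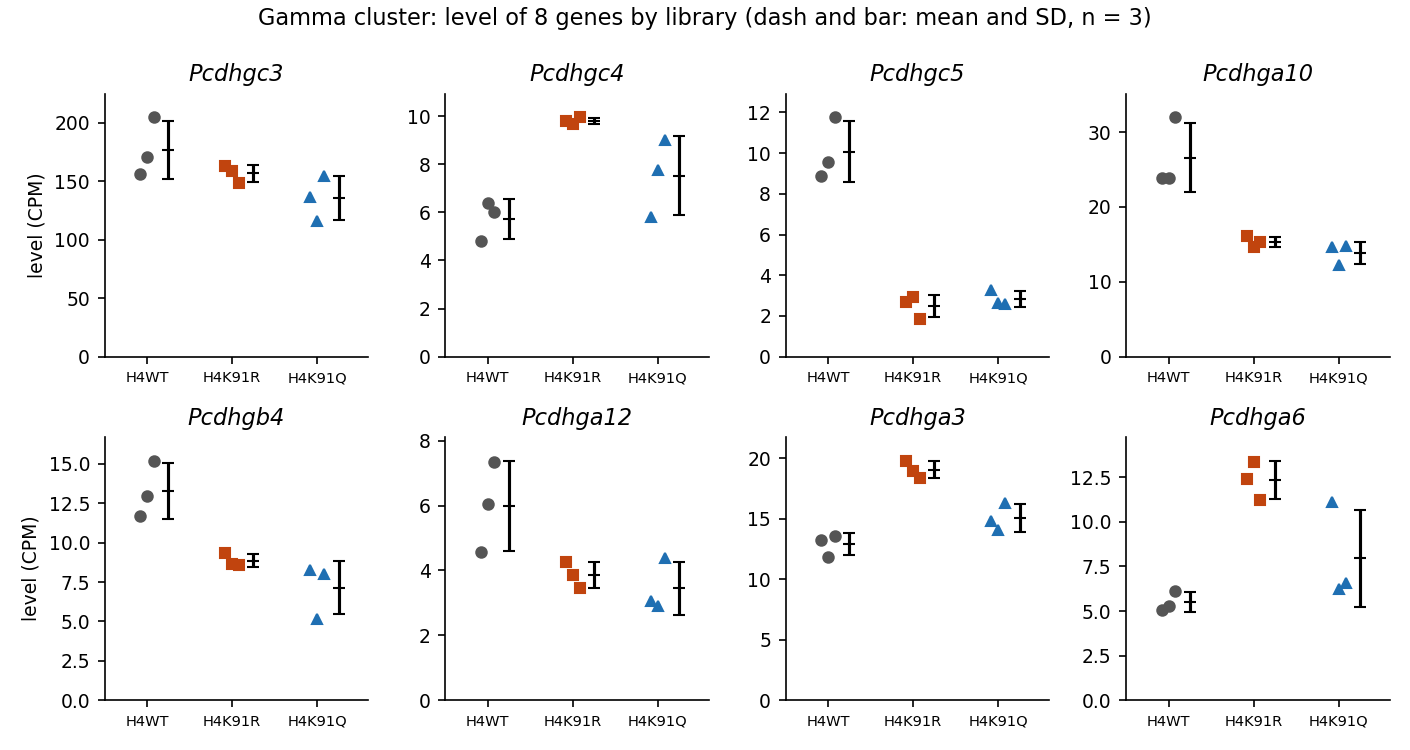
Level in CPM (y axes, linear from 0) of 8 gamma genes in the 3 libraries of each group, with the mean and SD beside them. Pcdhgc5 lies at 8.90 to 11.8 CPM in H4WT and at 1.87 to 3.26 CPM in the mutants, Pcdhga10 is lower in both mutants, and Pcdhga6 has 1 H4K91Q library at 11.1 CPM beside 6.23 and 6.56 CPM.

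Set directly against each other, the mutants gave few or no called clustered protocadherins, depending on the fit. By edgeR's quasi-likelihood test, 0 of the 53 tested genes passed an adjusted p of 0.05, beside 5.16% of all tested genes, 2.37% higher and 2.78% lower. DESeq2 called 1 gamma gene lower in H4K91Q, as did the fit with no filter. The fit of the compared groups alone called 2 alpha genes lower, and that with a replicate block 1 beta and 1 gamma gene. Without 1 library, 0 to 1 gene was called lower in each cluster. The estimates lay below 0 in H4K91Q for most genes, with 0 of 11 alpha, 3 of 20 beta and 1 of 22 gamma genes above 0. Their medians were -0.62, -0.33 and -0.25, beside 0.01 over all genes. The H4K91Q libraries lay wholly below the H4K91R libraries for 20 of the 53, 7 alpha, 7 beta and 6 gamma, and wholly above for 0, beside 12.8% and 12.5% of all genes. Pcdha5 had the smallest adjusted p, 0.0669, at -0.57 ± 0.16, followed by Pcdhga3, with 0.0673 at -0.34 ± 0.10. The neuronal markers were also lower in H4K91Q than in H4K91R, 5 of 12 by the test and 0 higher, and their part in these values was not tested. In the joint test over the 3 groups, 10 alpha, 14 beta and 15 gamma genes were called, 39 of 53 beside 50.6% of all genes.

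Regulators of the clustered protocadherin promoters were measured in the same libraries, from a list of 23 genes. In each mutant against H4WT 5 were called higher and 5 lower, no larger a share than the 46% and 46.3% of all tested genes called in either direction. The median log2 change was 0.09 in H4K91R and 0.06 in H4K91Q, close to that of all genes. Ctcf, whose protein loops the promoters to their enhancers, was at 126 ± 1.37 CPM (SD, n = 3) in H4WT, 138 ± 7.0 CPM in H4K91R and 148 ± 8.42 CPM in H4K91Q, and was called in H4K91Q (0.23 ± 0.07, adjusted p = 0.0132) but not in H4K91R (adjusted p = 0.137). Wapl, which releases cohesin from DNA, fell in both mutants, by 0.47 ± 0.07 (adjusted p = 0.000175) and 0.27 ± 0.07 (adjusted p = 0.00847). Dnmt3a, a DNA methyltransferase, rose by 0.38 ± 0.07 in each (adjusted p = 0.000863 and 0.00081). Dnmt3b, the methyltransferase known to act on these promoters in the early embryo, was the single regulator called between the mutants. It was at 28.8 ± 6.09 CPM in H4WT, 15.9 ± 5.26 CPM in H4K91R and 65.6 ± 7.20 CPM in H4K91Q, with a log2 difference of H4K91Q from H4K91R of 2.07 ± 0.20 (adjusted p = 0.000429). Pluripotent cell markers, among which Dnmt3b is also known to be expressed, summed to 114 to 203, 43.4 to 79.5 and 180 to 330 CPM in the same groups, and their part in the Dnmt3b values was not tested.

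Of 26 known partners and effectors of the proteins, 11 were called higher and 10 lower in H4K91R, and 10 higher and 10 lower in H4K91Q, beside 20.9% and 25.1% of all tested genes in H4K91R and 22.5% and 23.8% in H4K91Q. Ptk2b, which encodes the kinase Pyk2 that clustered protocadherins are known to inhibit, was at 26.6 ± 2.73 CPM in H4WT, 7.99 ± 0.872 CPM in H4K91R and 8.82 ± 0.640 CPM in H4K91Q. It fell by 1.73 ± 0.12 and 1.60 ± 0.12 on the log2 scale (adjusted p = 2.89e-07 and 6.39e-07). Dab1, an adaptor in the signalling of the secreted protein Reelin, rose by 1.44 ± 0.12 and 1.21 ± 0.12 (adjusted p = 1.17e-06 and 5.61e-06). Of 12 protocadherins outside the clusters, 4 were called higher and 5 lower in H4K91R, and 5 higher and 4 lower in H4K91Q, beside the same shares of all genes. Pcdh10, a cadherin-like gene on its own, rose by 1.63 ± 0.14 and 1.19 ± 0.14 (adjusted p = 1.07e-06 and 1.52e-05), and Pcdh17 fell by 0.82 ± 0.17 and 0.96 ± 0.17 (adjusted p = 0.00168 and 0.000499).

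Genes around the clusters were read for the same stretch of the chromosome, 500 kb to either side and between the clusters. Of 28 tested, 2 were called higher and 8 lower in H4K91R, and 3 higher and 5 lower in H4K91Q, with median log2 changes of -0.08 and 0.05. Of all tested genes 20.9% were called higher and 25.1% lower in H4K91R, and 22.5% and 23.8% in H4K91Q. The alpha genes had medians of 1.88 and 1.19 and the beta genes of 1.36 and 0.83, and the difference from the flanking genes was not tested. Hbegf, a growth factor gene, had the largest flanking change, at -1.69 ± 0.09 and -1.78 ± 0.09 (adjusted p = 6.55e-08 and 1.15e-07). Taf7, a single-exon gene between the beta and gamma clusters, was at 138 ± 12.4 CPM in H4WT, 115 ± 8.55 CPM in H4K91R and 143 ± 8.27 CPM in H4K91Q, and was the single flanking gene called between the mutants (log2 difference 0.32 ± 0.08, adjusted p = 0.0413).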

How the data were processed

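Poly(A) RNA of 9 libraries in 3 groups was isolated with QIAGEN RNeasy and turned into libraries with NEBNext Ultra II, per the labels' protocols. The authors deposited expected counts per Entrez gene, for which Salmon 0.8.2, the build mm10 and DESeq2 are named per the submitters' processing notes. All values were whole as deposited, and any rounding is not recorded. For the annotation, trimming and strandedness, nothing was given in the sources used here. Symbols came from a RefSeq gene table for GRCm38.p6, which matched 24045 of 24100 IDs. Pcdhb21, which that gene table lists, had no row among the deposited counts and could not be analysed. Transcript lengths and 31-base words came from GENCODE release M21.

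With edgeR 4.0.16 under R 4.3.3, filterByExpr at a minimum count of 10 retained 14761 genes, and libraries were scaled by TMM. The 9 libraries entered 1 quasi-likelihood fit with a mean for each group and no replicate block (biological coefficient of variation 8.82%). Tests were two-sided, with Benjamini-Hochberg adjustment over the 14761 genes and a call at an adjusted p below 0.05. The procedure was also run on simulated counts, with spreads estimated from these libraries and few changed genes. These data have many called genes, so that run is no support for the calls. The 2 mutants were compared with the same H4WT libraries, so those comparisons are not independent. Alternatives were RLE scaling, library size alone, no filter, DESeq2 1.42.0, a replicate block, the compared groups only and each library left out.

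Values per library are given for the C-type genes, the 4 other genes of each cluster with the highest mean CPM, and called genes against the direction of most called genes of their cluster. From each list, genes were drawn among the 4 called with the smallest adjusted p in a comparison, and Ctcf was added after its values were seen. Levels per kb used the GENCODE length, which for some beta genes exceeds the RefSeq span. The genes and lists were chosen with earlier results of these data known.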

Additional observations from a re-analysis of the deposited data

Results flagged for a closer look

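Gm38667, a row for an alpha-gamma hybrid transcript outside the 57 genes, had a signal in H4K91Q above that of the H4WT controls. Its mean level was 13.4 CPM in H4K91Q, 1.32 CPM in H4K91R and 0.173 CPM in H4WT, and the libraries of H4K91R and H4WT overlapped. The H4K91Q libraries were at 5.27, 30.4 and 4.39 CPM, and without replicate 2 their mean was 4.83 CPM.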

How the results depend on the processing

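Of the 414 recomputed values for cluster counts and sums, 382 stayed within the limits set for the same result, and 32 moved. A count stayed if it was equal or within 1.5 times, and a sum if its log2 ratio moved by less than the SD between libraries. The 382 include counts of 0 that stayed 0 and fits without a library of a group outside the comparison, so they overstate the stability. With library size as the only scaling, gamma genes called higher numbered 11 in H4K91R and 7 in H4K91Q and those called lower 2 and 5, the beta sums gave log2 ratios of 1.08 and 0.87, the gamma sum in H4K91R one of 0.17, and Pcdhgc3 in H4K91R one of 0.012, reversed in sign. For H4K91Q against H4K91R, fitting only the compared groups called 2 alpha genes lower, and DESeq2 and the fit with no filter each called 1 gamma gene lower. The labels do not say whether replicate numbers pair the libraries. Correlations of deviations between same-numbered libraries ran from -0.16 to 0.20 over 9 pairs, and 5 exceeded 0.1. Those between differently numbered libraries of separate groups ran from -0.29 to 0.27. These values do not settle whether the numbers pair the libraries. With the replicate block 1 beta and 1 gamma gene were called lower in H4K91Q than in H4K91R, and no other count moved by more than 1.5 times. Adding the hybrid rows, an alternative chosen after seeing the data, gave alpha log2 ratios of 1.77 for H4K91Q against H4WT and -0.16 against H4K91R. Leaving out each library in turn gave 4 to 8 gamma genes higher and 2 to 4 lower in H4K91R, 5 to 8 alpha genes higher in H4K91Q, and 0 to 4 gamma genes higher and 5 to 9 lower there. Between the mutants it gave 0 to 1 lower in each of the alpha, beta and gamma clusters. Calls held in every alternative for 9 of 10 alpha, 12 of 17 beta, 4 of 7 higher and 2 of 4 lower gamma genes in H4K91R, and for 5 of 8, 11 of 13, 0 of 2 and 5 of 9 in H4K91Q, and no called gene changed sign. The cause of these changes was not tested. Depth limits the alpha genes most, with 86 to 732 counts per library for the whole cluster.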
